A study of Rattus norvegicus with 6 samples.

Results

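A set of 5 highly abundant circular RNAs (circRNAs) of the rat thalamus is described here, each together with every circRNA that overlaps it on the same chromosome and strand. The leading circles, called leaders, are novel_circ_0019207 of chromosome 1, novel_circ_0000371 of chromosome 10, novel_circ_0011230 of chromosome 16, novel_circ_0040481 of chromosome 7 and novel_circ_0022940 of chromosome 2. With 60 overlapping circles they make 65 of the 32445 circRNAs in the deposited table. The leaders were chosen by their read counts, as abundant circRNAs that lead their locus, so their levels and shares are descriptions without a test. By mean level over 6 libraries they ranked 3, 4, 6, 7 and 9 of all circRNAs. The last of them, at 4286 RPM (reads per 1000000 circRNA reads), stood next to a circle of another locus at 4282 RPM that ranked 10.

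The thalamus was taken from 6 rats, described in the labels as separate animals. In the CFA group, 3 rats received 50 µL of CFA (complete Freund's adjuvant, a mycobacterial emulsion that provokes lasting joint inflammation) into both temporomandibular joints. In the saline group, 3 rats received 50 µL of saline in the same joints. Both groups were injected 2 times per week, and tissue was collected after 14 days. The strain, sex and age of the rats were not given in the sources used here. This model inflames the joint, and the thalamus, the relay of orofacial sensory input to the cortex, was not itself injected.

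A circRNA forms when the spliceosome joins a downstream splice donor to an upstream splice acceptor, which closes the RNA into a ring without ends. Such rings resist exonucleases and can build up in the brain, where neurons make many of them. Reads that cross the back-splice junction tell the ring from the linear transcript of the same gene, and the counts used here are counts of circles, named by that junction. The 5′ end of a circle's sequence is called its acceptor end and the 3′ end its donor end. One gene can give several rings that share an acceptor or a donor, and such rings are the overlapping circles described here. Ring-shaped RNA can be translated in some cases, and a reading frame can then run across the junction.

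Libraries held 573696 to 1176178 circRNA reads, and the 5 leaders held 2.38% to 2.81% of them, their 5 loci 2.81% to 3.40%. Between 41 and 50 of the 65 circles had reads in a given library. PCR amplified the reads, which have no molecular identifiers, so intervals on shares cover counting error only. The lowest count above 0 in the table is 2, so a listed 0 may be 1 read. RNA was purified with poly-T beads per the labels' protocols, which name neither RNase R nor rRNA removal. Host genes are not named, because the files do not pair the identifiers with genes, and for the same reason the tissue was not checked against marker genes. Positions are copied from the headers of the deposited sequences, and their build was not given in the sources used here.

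A leader is identified here by its junction. Each deposited junction sequence below holds 29 bases before the joint in lower case, the donor side, and 29 after it in capitals, the acceptor side.
novel_circ_0019207, chromosome 1: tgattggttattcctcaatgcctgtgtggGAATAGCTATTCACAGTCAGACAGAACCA
novel_circ_0000371, chromosome 10: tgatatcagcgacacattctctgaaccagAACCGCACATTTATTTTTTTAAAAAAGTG
novel_circ_0011230, chromosome 16: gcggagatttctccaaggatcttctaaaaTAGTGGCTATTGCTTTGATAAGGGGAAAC
novel_circ_0040481, chromosome 7: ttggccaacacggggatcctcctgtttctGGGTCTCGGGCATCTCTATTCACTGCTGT
novel_circ_0022940, chromosome 2: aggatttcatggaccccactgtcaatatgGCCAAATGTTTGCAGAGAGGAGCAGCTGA
None of the 5 came within 5 mismatches of a junction of another locus. The closest differed at 27 to 29 of the 58 bases. Junctions were compared base by base without shifts. A like sequence displaced by a few bases would not have been seen, and sharing of reads was not tested.

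The chromosome 1 leader spans 204959173 to 204961691 on the plus strand, has 1016 nt and 32774 reads over the 6 libraries. The chromosome 10 leader spans 16724062 to 16730140 on the minus strand, with 1411 nt and 27394 reads. The chromosome 16 leader spans 23555919 to 23600154 on the plus strand and puts 617 nt together from 44236 nt of genome, with 22858 reads. On chromosome 7 the leader spans 138002505 to 138021168 on the minus strand, with 434 nt and 22707 reads. On chromosome 2 it spans 116586880 to 116591616 on the plus strand, with 375 nt and 20425 reads. The leaders therefore differ widely in length and in how much genome they bridge. No circRNA of the opposite strand overlapped any of the 5 leaders.

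Leader share, the part of a locus's reads that fall on the leader, set the chromosome 7 locus apart from the other 4. The leader held 77.8% of 42101 reads at the chromosome 1 locus, 79.7% of 34383 on chromosome 10, 87.1% of 26234 on chromosome 16 and 79.7% of 25613 on chromosome 2. On chromosome 7 it held 99.8% of 22756 reads. Its runner-up there, a 456 nt circle, had 29 reads, so the leader exceeded it 783-fold. At the other loci the leader exceeded the runner-up by 14.1-fold on chromosome 1, 7.36-fold on chromosome 10, 18.7-fold on chromosome 16 and 8.45-fold on chromosome 2. For scale, the median leader share was 61.8% (quartiles 44.9% and 82.1%) over the 3290 multi-circle loci of 100 reads or more. Over the 61 of 10000 reads or more it was 65.5% (quartiles 49.7% and 92.3%). These background loci are whole runs of circles that overlap one another, whereas the shares above count only circles that overlap the leader. Over its whole run the leader held 74.2% on chromosome 1, 79.2% on chromosome 10, 87.1% on chromosome 16, 99.8% on chromosome 7 and 79.7% on chromosome 2. Only the chromosome 7 share lay above the upper quartile of the loci of 10000 reads or more.

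The share differed between libraries by more than the counting error of independent reads at every locus, without separating the groups. On chromosome 1 it was 80.6%, 78.1% and 77.6% in CFA replicates 1 to 3 and 75.8%, 75.3% and 82.3% in saline replicates 1 to 3. The lowest and the highest library of this locus were both saline. In saline replicate 2 the exact Clopper-Pearson 95% interval was 74.5% to 76.1%, and in saline replicate 3 it was 81.4% to 83.3%. The counting error of independent reads does not bridge those libraries. On chromosome 10 the shares were 78.8%, 82.1% and 77.4% after CFA and 77.5%, 82.3% and 80.7% after saline, which overlap fully. On chromosome 16 they were 88.7%, 86.8% and 87.9% after CFA and 89.4%, 85.2% and 86.8% after saline. The chromosome 7 shares ranged from 99.5% to 100% and those of chromosome 2 from 77.8% to 82.1%. A chi-square of leader against other reads over the 6 libraries was taken per degree of freedom. It was 31.0, 17.7, 9.19, 4.82 and 10.3 for chromosomes 1, 10, 16, 7 and 2, where independent reads alone give about 1. PCR duplicates can raise it as well. With 1 library per rat, differences between rats and between library preparations cannot be told apart.

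**Figure D1:**
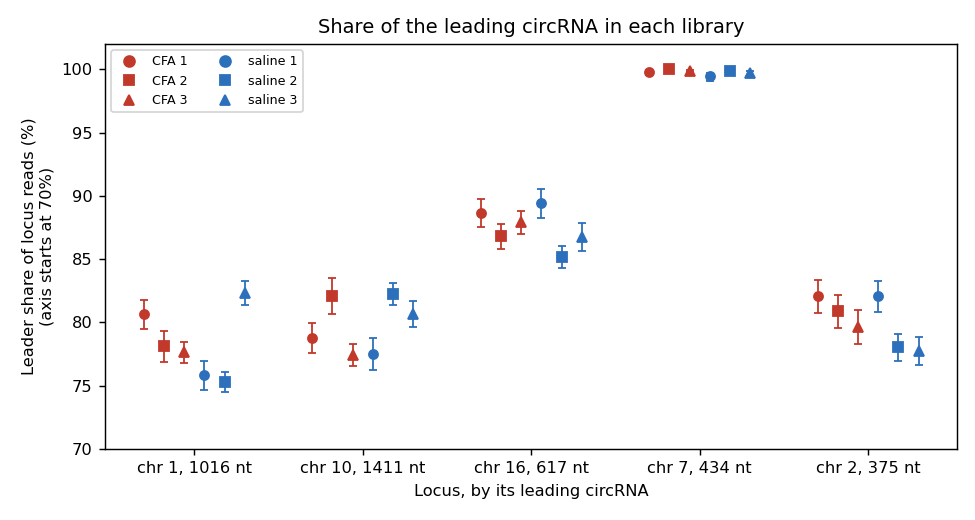
Share of locus reads on the leading circle (y axis, percent, starting at 70%) at each of the 5 loci (x axis), with 1 point per library (red CFA, blue saline) and exact 95% binomial intervals. The chromosome 7 points lie at 99.5% or above, and at the other 4 loci red and blue points overlap.

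The difference in mean share between CFA and saline was small at all 5 loci. CFA minus saline was 0.99 percentage points on chromosome 1 (78.8% ± 1.62 against 77.8% ± 3.93; SD, n = 3 each), with an exact two-sided permutation p of 0.6. On chromosome 10 it was -0.71 points (79.4% ± 2.41 against 80.1% ± 2.41; exact permutation p = 0.7), and on chromosome 16 it was 0.68 points (87.8% ± 0.94 against 87.1% ± 2.14; exact permutation p = 0.6). On chromosome 7 it was 0.23 points (99.9% ± 0.11 against 99.7% ± 0.19; exact permutation p = 0.2). On chromosome 2 it was 1.57 points (80.9% ± 1.19 against 79.3% ± 2.42; exact permutation p = 0.4). The Benjamini-Hochberg adjusted p over the 5 loci was 0.7 for each of these exact tests. With 3 against 3 libraries the smallest p such a test can give is 0.1, so none could have passed 0.05.

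The circles of each locus mostly shared ends with the leader, and the leader's acceptor was the most used acceptor everywhere. It carried 82.2% of locus reads on chromosome 1, 84.8% on chromosome 10, 94.96% on chromosome 16, 99.97% on chromosome 7 and 96.2% on chromosome 2. The leader's donor carried 87.3%, 94.4%, 90.9%, 99.8% and 83.3% in the same order. Acceptors and donors numbered 8 and 7 on chromosome 1, 7 and 6 on chromosome 10, 4 and 4 on chromosome 16, 2 and 4 on chromosome 7, and 2 and 8 on chromosome 2. Of the 60 other circles, 34 spanned the whole genomic span of their leader, yet only 2 of these held the leader's whole sequence, and 21 of them were shorter than the leader. Both exceptions are on chromosome 1. Counts are taken as counts of junctions, and how the authors assembled the sequence between the ends of a circle was not given in the sources used here.

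**Figure D2:**
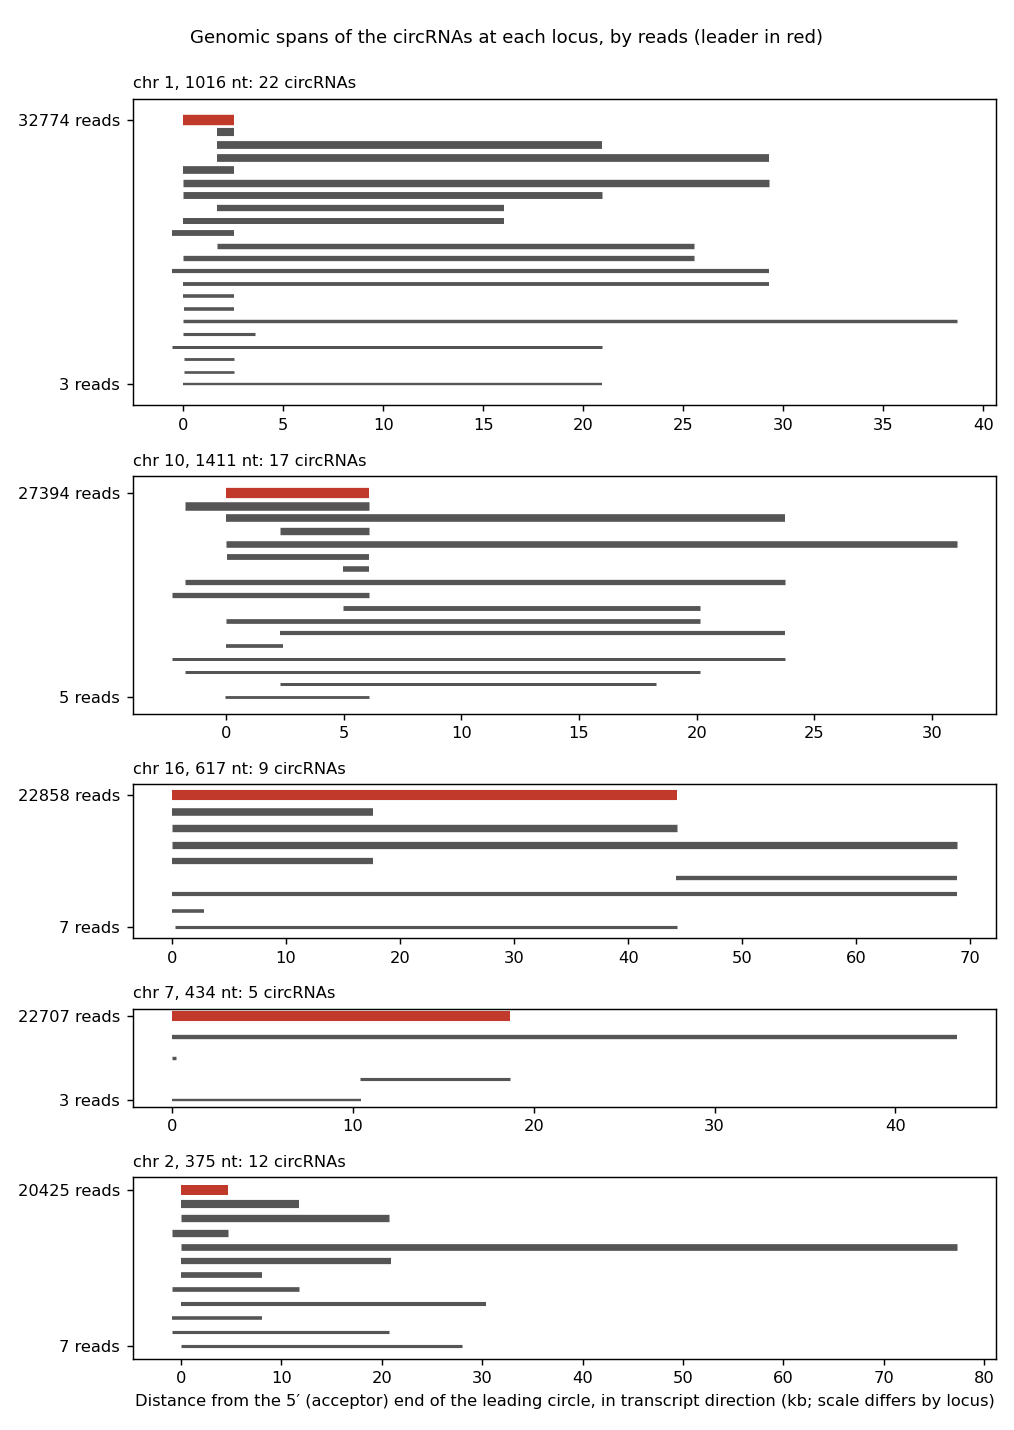
Genomic span of each of the 65 circRNAs, drawn as distance in kb from the acceptor end of the leader in transcript direction (x axis, scale differs by locus), ordered from most to fewest reads, with thicker bars for more reads and the leader in red. On chromosome 2 all 11 other circles span the leader, whereas on chromosomes 16 and 7 most of them lie inside it.

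The chromosome 1 locus held 22 circles, the most of the 5. The leader consists of a 165 nt segment followed by an 851 nt segment. The second most read circle, novel_circ_0019218 with 2331 reads, is the 851 nt segment closed on itself, a single segment as long as its genomic span. Its junction and that of a 1034 nt circle, novel_circ_0019204 with 1455 reads, join the leader's donor to other acceptors.
novel_circ_0019218, acceptor 1668 nt downstream: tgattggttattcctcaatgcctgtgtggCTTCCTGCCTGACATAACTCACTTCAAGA
novel_circ_0019204, acceptor 18 nt upstream: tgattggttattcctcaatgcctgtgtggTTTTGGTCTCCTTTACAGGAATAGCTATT
In the longer circle 18 extra bases precede the GAATAGC at which the leader starts. The 1034 nt circle was therefore the leader plus 18 nt. The remaining circles with many reads ran to donors farther downstream, novel_circ_0019220 with 1190 nt and 1580 reads, and novel_circ_0019222 with 371 nt and 1489 reads.

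On chromosome 1 the acceptor in use went with the donor it was joined to. At the leader's donor, 204961691, the inner acceptor at 204960841 took 6.64% of the reads shared between it and the leader's acceptor (2331 against 32774 reads), with 3.55% to 8.42% in single libraries. At the donor 18430 nt farther downstream it took 74.0% (1580 against 555 reads), with 70.9% to 86.0% in single libraries. The preference was thus reversed, in 6 of 6 libraries and without overlap. At the donors 13536, 23032 and 26739 nt downstream the inner acceptor took 59.0% (284 against 197 reads), 53.8% (100 against 86) and 60.1% (1489 against 990). CFA replicate 1 stood apart at 13536 nt and at 26739 nt, with 0% at each. At 23032 nt, where reads were few, the libraries ranged from 28.6% in CFA replicate 1 to 100% in CFA replicate 2. The 18 nt upstream acceptor took 4.25% against the leader's acceptor at the leader's donor (3.64% to 4.87% by library), and 0.54% and 1.59% at donors 18430 and 26739 nt downstream, where it had only 3 and 16 reads.

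**Figure D3:**
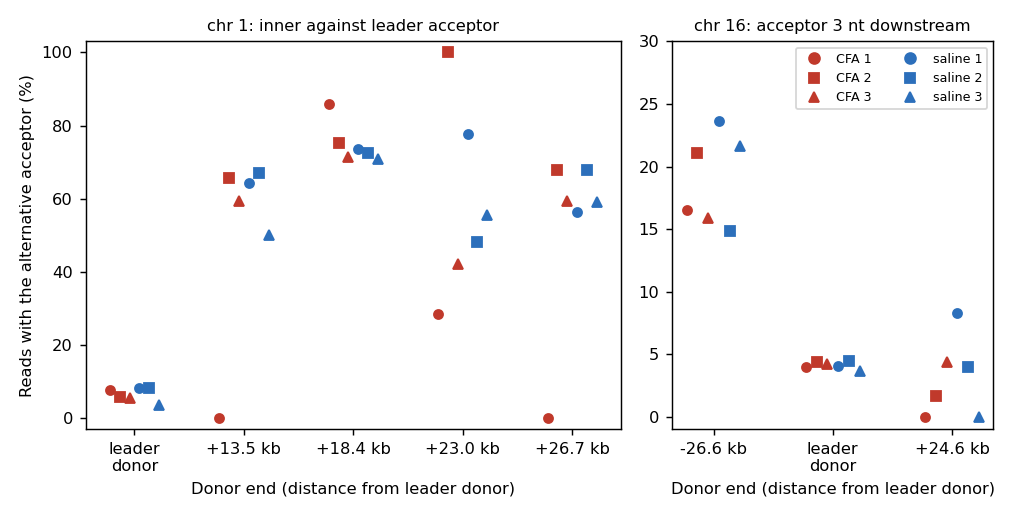
Percent of reads that use the alternative acceptor rather than the leader's acceptor (y axis) for each donor end, given as distance from the leader's donor (x axis), with 1 point per library (red CFA, blue saline). On chromosome 1 (left) the inner acceptor lies at 3.55% to 8.42% at the leader's donor and at 70.9% to 86.0% at the donor 18.4 kb downstream, and on chromosome 16 (right) the acceptor 3 nt downstream lies near 4% at the leader's donor and at 14.9% to 23.6% at the inner donor.

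Among chromosome 1 circles whose median over the remaining libraries was 50 RPM or more, 2 had no reads in 1 library. The 371 nt circle novel_circ_0019222 is listed at 0 in CFA replicate 1, beside 157, 414, 200, 560 and 158 reads in CFA replicates 2 and 3 and saline replicates 1 to 3. The 223 nt circle novel_circ_0019219, named after its values were seen, shares the inner acceptor and is also listed at 0 there, beside 23 to 120 reads elsewhere. CFA replicate 1 had 202 reads on novel_circ_0019220, which uses the same acceptor, so the acceptor itself was read in that library. The cause of the zeros was not tested.

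The chromosome 10 leader carried a segment that the overlapping circles almost never had. It consists of segments of 195, 126, 990 and 100 nt. The 990 nt segment was whole in 1 of the 16 other circles, with 53 reads. The 195, 126 and 100 nt segments were each present in 7 or 8 others, with 5100 to 6586 reads. The runner-up, novel_circ_0000374 with 3720 reads, starts 1762 nt upstream of the leader's acceptor and ends at the leader's donor, but has only 509 nt, since it passes from the 126 nt to the 100 nt segment directly. The 226 nt circle novel_circ_0000369 (964 reads) is the 126 and 100 nt segments alone. Others were longer to the downstream side, novel_circ_0000360 with 903 nt and 1310 reads and novel_circ_0000356 with 654 nt and 390 reads. The upstream acceptor of novel_circ_0000374 took 11.96% of reads against the leader's at the leader's donor (8.79% to 15.1% by library) and 6.29% at the donor 17684 nt farther downstream (4.40% to 10.2%), ranges that overlap.

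A chromosome 10 circle of 395 nt, novel_circ_0000368, was read in 1 library alone. It runs from 16724062 to 16725151, shares the leader's donor, and holds the first 295 nt of the 990 nt segment joined to the 100 nt segment. CFA replicate 1 had 115 reads of it, or 175 RPM, and the other 5 libraries are listed at 0. It is the only one of the 65 circles that reached 50 RPM in 1 library and had no reads elsewhere.

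The chromosome 16 circles showed an acceptor choice of 3 nt. The leader consists of 204, 81, 75, 38, 59, 67 and 90 nt segments behind 3 bases, TAG, that depend on which of 2 acceptors is used. The 539 nt circle novel_circ_0011239 (994 reads) and the 263 nt circle novel_circ_0011238 (269 reads) start 3 nt downstream of the leader and lack them, while the 266 nt circle novel_circ_0011229 (1225 reads) has them. The pairs at each donor are shown so that the shift can be read after the joint.
novel_circ_0011239, leader's donor: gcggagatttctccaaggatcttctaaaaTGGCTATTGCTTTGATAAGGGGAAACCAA
novel_circ_0011229, inner donor: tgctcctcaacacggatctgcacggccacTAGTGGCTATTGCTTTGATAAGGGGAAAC
novel_circ_0011238, inner donor: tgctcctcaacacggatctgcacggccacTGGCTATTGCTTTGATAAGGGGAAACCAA
The TAG of the leader and of the 266 nt circle is absent after the joint in the other pair.

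The share of the downstream acceptor differed between donors. At the leader's donor it took 4.17% of reads (994 against 22858), and the 6 libraries lay between 3.65% and 4.47%. At the inner donor, 26624 nt upstream, it took 18.01% (269 against 1225 reads), and the 6 libraries lay between 14.9% and 23.6%, each above every value at the leader's donor. At the donor 24605 nt downstream it took 2.86%, from 24 reads against 816. CFA and saline libraries did not separate at either well-read donor: at the inner donor the share was 17.8% ± 2.86 with CFA and 20.04% ± 4.58 with saline, and at the leader's donor 4.18% ± 0.19 and 4.07% ± 0.41 (SD over 3 libraries). Because the deposited sequence of the 539 nt circle also lacks the 75 nt segment, the 2 circles differ by more than TAG as deposited, although their junctions differ by TAG alone.

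A 67 nt segment of the chromosome 16 leader begins with GTAAGT, the bases that commonly open an intron, and ends with CAG, bases that commonly close one. It is in capitals between 20 bases of each neighbouring segment.
novel_circ_0011230, 67 nt segment: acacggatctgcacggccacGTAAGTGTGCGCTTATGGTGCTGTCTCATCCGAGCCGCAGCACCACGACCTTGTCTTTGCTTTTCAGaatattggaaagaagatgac
Of the 8 other circles of the locus only the 539 nt circle has it. The 835 nt circle novel_circ_0011231 (816 reads) and a 230 nt circle with 7 reads join the 2 neighbouring segments without it. The bases before the segment, ending cggccac, are also the donor end of the 266 and 263 nt circles. Whether reads covered the segment was not given in the sources used here.

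On chromosome 7 the locus had 5 circles, but nearly all reads fell on the leader. The leader consists of 216, 76, 26 and 116 nt segments. The 26 nt segment was in 0 of the 4 other circles, which together had only 49 reads. The 116 nt segment that follows it in the leader was itself in only 1 of them, with 7 reads. Of the 4 others, novel_circ_0040483 (10 reads, saline replicate 1 alone) is the 216 nt segment closed on itself. The 292 nt novel_circ_0040482 (3 reads) is the 216 and 76 nt segments together. The 209 nt novel_circ_0040480 (7 reads) has the 76 and 116 nt segments and, between them, 17 nt that matched no block of the leader. The 456 nt circle novel_circ_0040479 has its donor farther downstream at 137977757. The last had 4, 0 and 4 reads in the CFA libraries and 4, 9 and 8 in the saline libraries. In CFA replicate 2 all 2863 reads of the locus fell on the leader, with a lower bound of 99.9% by the exact 95% interval.

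On chromosome 2 the leader alone carried a 25 nt segment, and the leader had an endless reading frame. The leader consists of 135, 110, 25 and 105 nt segments. The 135 nt segment was in 10 of the 11 other circles, and the 110 and 105 nt segments in 7 each. The 25 nt segment was in 0 of the 11, which together had 5188 reads. It too opens with GTAAGT and closes with CAG. The leader is shown with the segment in capitals and 20 bases of each neighbouring segment. Under it stands the join that novel_circ_0022942, the 716 nt runner-up with 2418 reads, has in its place.
novel_circ_0022940, with the segment: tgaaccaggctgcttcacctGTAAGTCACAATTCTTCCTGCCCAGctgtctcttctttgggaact
novel_circ_0022942, without it: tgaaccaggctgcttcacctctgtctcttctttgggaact
With the 25 nt the circle has 375 nt, a multiple of 3, and 1 of its frames has no stop codon and contains an ATG, so it could be read round the ring without end. With the 25 nt taken out in the sequence, the ring has 350 nt, no endless frame, and a longest ATG frame of 148 codons. Since 350 is not a multiple of 3, the frames run into each other over 3 laps, and any of the 6 remaining stop codons closes them. The loss of the frame thus follows from the length and was fixed in advance. The 444 nt circle novel_circ_0022935 also lacks the 25 nt and has an endless frame with an ATG.

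GTAAGT was searched on the transcript strand of the 65 circles, across the joint as well. It was found in 4 of 65 (6.15%): the chromosome 16 leader and the 539 nt circle of its locus, the chromosome 2 leader, and the 209 nt circle of chromosome 7. Over the whole series 2.36% of circles hold it, as do 1.89% of 15414 circles within 20% of the length of the chromosome 2 leader and 3.21% of 5944 circles near that of the chromosome 16 leader. A match describes the letters of the deposited sequence and says nothing on how the segment came to be there.

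The reading frames of the 5 loci were mostly closed by stop codons. An endless frame was present in 2 of 65 circles (3.08%), both of the chromosome 2 locus: the 375 nt leader and the 444 nt circle novel_circ_0022935, which starts 871 nt upstream and lacks the 25 nt segment. Over the whole series 18.8% of circles have such a frame. A frame without a stop over the sequence read a single time from its deposited start was present in 10 of 65 circles (15.4%), against 50.1% of all circles. Overlapping circles share sequence, so the 65 are not independent, and these shares are descriptions.

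Among frames that start with ATG and end at a stop codon, which leaves out the endless frame of chromosome 2, the longest of the leaders came from chromosomes 10 and 1. On chromosome 10 it had 507 codons, crossed the junction and, at 1521 nt, exceeded the ring itself (108% of its length). On chromosome 1 it had 320 codons (94.5% of the ring), also across the junction. The chromosome 16 leader had 176 codons without crossing. The chromosome 7 leader had 74, and its longest stretch without a stop, 86 codons, was short for its size: of 14492 circles within 20% of its length, 7.25% had a shorter one. For chromosomes 1, 10 and 16, 68.5%, 87.9% and 54.7% of circles of like length had a shorter stop-free stretch. Without the 990 nt segment the chromosome 10 ring would have 421 nt and an ATG frame of 177 codons, and without the 67 nt segment the chromosome 16 ring would have 550 nt and 165 codons.

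Adenine content was compared because the labels' protocols name poly-T beads. The longest run of A was 6 bases in the chromosome 1 leader, 7 in chromosome 10, 5 in chromosome 16, 4 in chromosome 7 and 3 in chromosome 2. Median longest runs in circles of like length were 5, 5, 5, 4 and 4. The leaders had 31.7%, 31.2%, 31.1%, 26.0% and 24.5% A, against medians of 28.5%, 27.6%, 28.5%, 28.3% and 28.3%. Whether the A content bears on recovery was not tested.

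Rat miRNA seeds, bases 2 to 8 of the mature RefSeq sequences, were matched to the rings across the junction. None of the 5 leaders held more than 2 matches to any of 584 seeds. The chromosome 7 leader, with matches to 19 seeds in all, held 2 matches of 1 seed, that of miR-3559-5p, whose site GTCTGTC occurs at least that often in 0.104% of 14492 circles of like length. Its seed is in capitals.
rno-miR-3559-5p: uGACAGACuuaguacuacauga
The chromosome 1 leader held 2 matches for 3 seeds (miR-431, miR-434-3p and miR-547-5p) and the chromosome 10 leader for 6. Their sites occur at least that often in 1.44% to 2.08% and 0.485% to 8.25% of circles of like length. The chromosome 7 percentage is the lowest of these, from 584 seeds searched in 5 leaders, so it is low by selection. The chromosome 16 and 2 leaders had 30 and 26 seeds with 1 match each. A match is a description of letters, not a binding site.

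The levels of the leaders are given per library as RPM, a share of all circRNA reads, in which fewer cells of a type and less RNA per cell cannot be told apart. The chromosome 1 leader stood at 5559, 5365 and 7986 RPM in CFA replicates 1 to 3 and at 7480, 7430 and 5751 RPM in saline replicates 1 to 3. CFA replicate 3 was the highest of the 6 and CFA replicate 2 the lowest. The group means were 6303 ± 1460 and 6887 ± 984 RPM (SD over 3 libraries each), and CFA minus saline was -0.15 ± 0.21 (SE) as a log2 fold change.

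The chromosome 10 leader stood at 5664, 3734 and 7497 RPM after CFA and at 5738, 5409 and 5144 RPM after saline. All saline values lay within the CFA range. The means were 5632 ± 1882 and 5430 ± 298 RPM and the log2 fold change 0.034 ± 0.21, which turned to -0.26 without CFA replicate 3. The column of that library begins with another letter than the other CFA columns, and the meaning of the letter was not given in the sources used here.

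After CFA the chromosome 16 leader stood at 4473, 5953 and 5076 RPM, and after saline at 4305, 4748 and 3634 RPM. Saline replicate 2 exceeded CFA replicate 1, so the groups overlapped. The means were 5167 ± 744 and 4229 ± 561 RPM and the log2 fold change was 0.25 ± 0.22.

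The chromosome 7 leader stood at 4651, 4394 and 4555 RPM after CFA and at 4468, 4445 and 5218 RPM after saline. It varied least of the 5 between libraries, with a coefficient of variation of 6.62% over the 6 libraries. Among 122 circRNAs with a mean of at least 1000 RPM this was rank 5 from the lowest, beside a median of 18.8%. The 4 other leaders had 17.6% (chromosome 1), 21.9% (chromosome 10), 16.6% (chromosome 16) and 20.6% (chromosome 2). Its means were 4533 ± 130 and 4710 ± 440 RPM and its log2 fold change was -0.091 ± 0.22, or 0.016 without saline replicate 3.

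The chromosome 2 leader stood at 4252, 4389 and 2961 RPM after CFA and at 5677, 3919 and 4520 RPM after saline. CFA replicate 3 was the lowest, and saline replicate 2 lay below CFA replicates 1 and 2. The means were 3867 ± 788 and 4706 ± 893 RPM and the log2 fold change was -0.31 ± 0.22, the farthest from 0 of the 5.

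**Figure D4:**
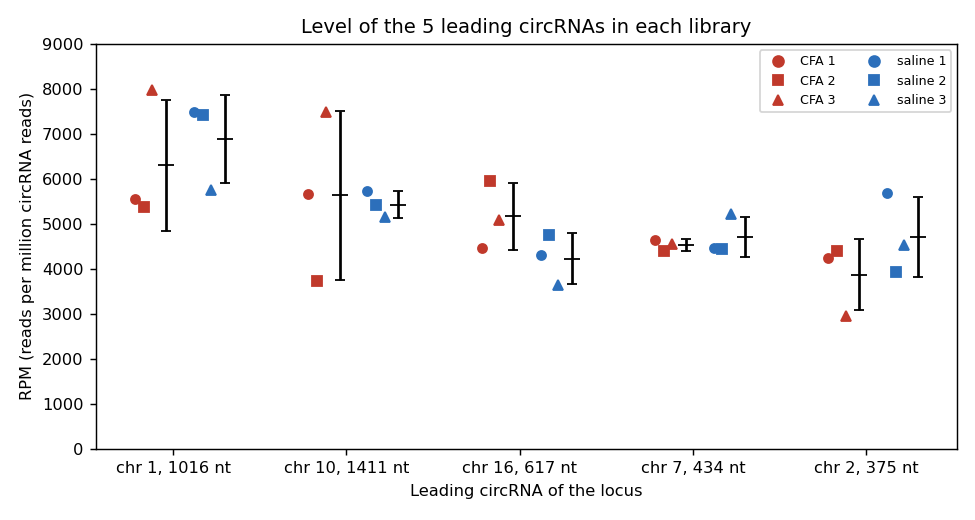
RPM of each leader (y axis) in each library, by locus (x axis), with CFA in red and saline in blue, 1 symbol per replicate, and bars for the group mean ± SD (n = 3). The CFA and saline points overlap for all 5 leaders, and the chromosome 7 points lie closest together, between 4394 and 5218 RPM.

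None of the 5 leaders passed the threshold of 0.05 in edgeR (quasi-likelihood test, Benjamini-Hochberg adjusted p = 0.9999 for each, over 22426 circRNAs tested). The 95% intervals of the log2 fold change, by normal approximation, were -0.56 to 0.26 on chromosome 1, -0.38 to 0.45 on chromosome 10, -0.18 to 0.68 on chromosome 16, -0.52 to 0.34 on chromosome 7 and -0.74 to 0.12 on chromosome 2. Each interval includes 0, and its other values are also compatible with these libraries. Sums over all circles of each locus gave -0.17 ± 0.20, 0.057 ± 0.22, 0.26 ± 0.19, -0.078 ± 0.19 and -0.32 ± 0.20 (SE) in the same order. Of these 5 sums 0 passed the adjusted threshold in edgeR (0 at an unadjusted p below 0.05, 0 adjusted in DESeq2), where 0.0132% of 7583 loci passed adjusted and 1.66% unadjusted. The groups overlapped for all 5 sums. Of all loci 6.08% were without overlap, and 5 sums are too few to differ visibly from that share.

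Of the 65 circles, 51 had at least 10 reads and were tested, and 14 fell below. None of the 51 passed the adjusted threshold of 0.05 in edgeR, 0 had an unadjusted p below 0.05, and DESeq2 called 0. Of all 22426 circRNAs tested, 0.125% passed the adjusted threshold and 2.68% the unadjusted one. The smallest adjusted p among the 51 was 0.912 (edgeR, quasi-likelihood test, Benjamini-Hochberg). The log2 fold change was above 0 for 19 circles and below for 32, with a median of -0.15, beside -0.053 over all circRNAs tested. By locus, 13 of 17 tested circles lay below 0 on chromosome 1, 4 of 13 on chromosome 10, 4 of 8 on chromosome 16, 3 of 3 on chromosome 7 and 8 of 10 on chromosome 2. Circles of 1 locus share sequence and animals, so these counts are not independent evidence.

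**Figure D5:**
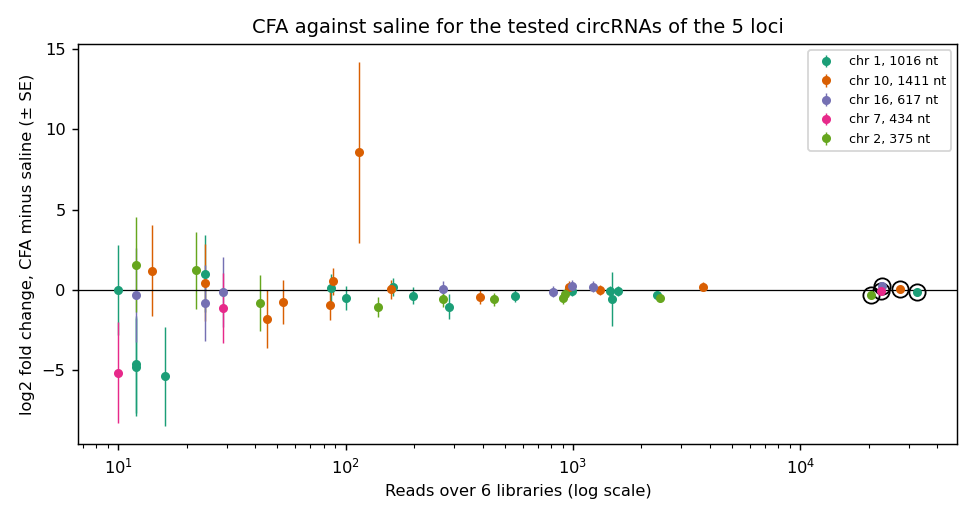
log2 fold change of each tested circRNA, CFA minus saline (y axis, bars ± SE), against its reads over 6 libraries (x axis, log scale), coloured by locus, with leaders circled. The 5 leaders lie between -0.31 and 0.25, and the widest values belong to circles with few reads or with reads in 1 library.

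Groups that did not overlap were found for 5 of the 51 tested circles (9.80%), against 6.63% of all circRNAs tested. Of the 5, 4 were lower after CFA, where 3.42% of all tested were, and 3 of those 4 were on chromosome 2. The 716 nt runner-up novel_circ_0022942 had 465, 453 and 345 RPM after CFA and 567, 486 and 651 RPM after saline. On the log2 scale CFA minus saline was -0.47 ± 0.30 (SE), with a Benjamini-Hochberg adjusted p of 0.912 in edgeR. The 444 nt circle novel_circ_0022935, which carries the other endless frame, had 168, 140 and 151 RPM after CFA and 241, 211 and 191 RPM after saline, with -0.51 ± 0.35. The 593 nt circle novel_circ_0022941, which shares the leader's acceptor and was named after its values were seen, had 25.9, 23.0 and 9.96 RPM after CFA and 55.8, 28.1 and 35.3 RPM after saline. The fourth was the 456 nt circle of chromosome 7, with few reads. The circle that was higher, novel_circ_0000361 of chromosome 10, named after its values were seen (3.21% of all tested were higher without overlap), had 28.9, 18.4 and 18.8 RPM after CFA and 12.2, 15.3 and 16.02 RPM after saline.

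The other circles of chromosome 2 were summed after these values were seen, and this sum did not overlap between the groups. The 11 circles besides the leader totalled 908 ± 142 RPM in the CFA group and 1212 ± 98.0 RPM in the saline group (SD, n = 3 each), and the 3 circles above are part of that sum, so no test of it is given. The leader's own groups overlapped, as did the sums of other circles at the remaining 4 loci. Further named circles of the locus were the 896 nt novel_circ_0022944, with 177 ± 28.0 and 208 ± 38.8 RPM, and the 620 nt novel_circ_0022949, with 72.1 ± 25.9 and 102.03 ± 42.9 RPM, whose groups overlapped.

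At chromosomes 1, 10 and 16 the groups overlapped for the most read circles besides the leader. On chromosome 1 the 851 nt circle had 421 ± 72.7 RPM in the CFA group and 524 ± 271 RPM in the saline group (SD, n = 3), with its lowest value, 212 RPM, in saline replicate 3. The 1190 nt circle had 319 ± 30.1 and 329 ± 101.5 RPM, and the 1034 nt circle 293 ± 78.2 and 299 ± 29.5 RPM. On chromosome 10 the 509 nt circle had 820 ± 470 and 723 ± 262 RPM, with 361 RPM in CFA replicate 2 and 1299 RPM in CFA replicate 3, the lowest and highest of the 6. On chromosome 16 the 266 nt circle had 265 ± 27.1 and 221 ± 67.0 RPM and the 539 nt circle 226 ± 43.1 and 181 ± 42.1 RPM. The larger SD of the pair exceeded the difference between the means in 5 of these 6 circles, and fell just short of it in the 539 nt circle.

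The circle whose level kept the most constant ratio to a leader over the 6 libraries was looked up by the SD of the log2 ratio of RPM. Within the locus it was the 1034 nt circle on chromosome 1 (SD 0.17), the 903 nt circle on chromosome 10 (SD 0.14), the 539 nt circle on chromosome 16 (SD 0.11) and the 896 nt circle on chromosome 2 (SD 0.14). On chromosome 1 the choice fell on the leader plus 18 nt, and on chromosome 16 on the circle with the leader's donor and the acceptor 3 nt away. For chromosomes 1, 10, 16 and 2 each was the smallest of only 8, 8, 4 and 6 candidates, with medians of 0.40, 0.40, 0.22 and 0.40. The SD also holds counting error, which is larger in circles with few reads, so depth and likeness are not told apart. On chromosome 7 no other circle had reads in all 6 libraries. Among 1651 to 1657 circles of other loci the smallest SD was 0.04 for the chromosome 1 leader (a 454 nt circle of chromosome 4), 0.10 for chromosome 10 (884 nt, chromosome 1), 0.08 for chromosome 16 (307 nt, chromosome 6), 0.06 for chromosome 7 (491 nt, chromosome 8) and 0.09 for chromosome 2 (413 nt, chromosome 9). The smallest of so many values over 6 libraries is low by selection, and the medians over circles of other loci were 0.38 to 0.47.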

How the data were processed

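Sample titles gave the groups and replicate numbers. Per the file headers, the table deposited by the authors holds raw read counts of circRNAs by library, used for every test, and a normalized value named TPM there. A read adds an equal amount to it whatever the circRNA's length, so the deposited unit is RPM. All RPM in the text were recomputed as counts over the table's library sums. A deposited sequence file gives positions, spliced sequences and 58 nt junctions, and its starts, counted from 0, had 1 added. Per the submitters' processing notes the tools were DESeq2 1.20.0, featureCounts 1.5.0-p3, StringTie 1.3.3b and HISAT2 2.0.5, with no role stated. The build of the genome and the caller of circRNAs were not given in the sources used here. Library preparation with poly-T beads can change which circRNAs are recovered, and removal of counts of 1 affects rare circles.

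The members, lists and tests were chosen with earlier results of these data known. circRNAs with at least 10 counts over the 6 libraries were tested with edgeR 4.0.16 in R 4.3.3 (TMM, robust dispersions and quasi-likelihood fit, no covariates), and Benjamini-Hochberg adjustment ran over all circRNAs tested. Standard errors, which are approximate, divide the log2 fold change by the square root of F. Locus sums were tested the same way, and the pipeline was tested on simulated data. Shares were compared with exact two-sided permutation tests over libraries. Sequences were compared in blocks of at least 15 nt, and frames were read round the ring. Named were the leaders, the 4 most read overlapping circles of each locus, circles that share an end with the leader, and the circles closest to each leader in level. Alternatives were other normalizations, other low-count filters, DESeq2 1.42.0, a fit without robust dispersions, a replicate block, each library left out, and a wider locus.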

Additional observations from a re-analysis of the deposited data

How the results depend on the processing

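Of the values recomputed under the alternatives, 454 kept their direction and side of the threshold and 27 changed sign, and the cause of the sign changes was not tested. The number of the 65 circles called was 0 under every setting except 2. It was 1 in the fit without robust dispersions (Benjamini-Hochberg adjusted p = 0.0421, edgeR) and 1 in the fit with a replicate block (adjusted p = 0.00147, edgeR). Both calls are novel_circ_0000368 of chromosome 10, which was read in CFA replicate 1 alone. The number of locus sums called was 0 in every setting.

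Same-numbered CFA and saline libraries did not deviate together (r = 0.038, -0.015 and -0.16 for replicates 1, 2 and 3, over 8335 circRNAs), so the numbers were not treated as pairs. With the replicate block the chromosome 10 leader was at -0.033 on the log2 scale and its locus sum at -0.0070. The overlapping circles novel_circ_0000360 and novel_circ_0000369 were at -0.025 and -0.017.

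With each library left out, the log2 fold changes ranged from -0.26 to 0.28 for the chromosome 10 leader (-0.26 without CFA replicate 3) and from -0.22 to 0.29 for its locus sum. For the chromosome 7 leader they ranged from -0.18 to 0.016 and for its locus sum from -0.14 to 0.027, above 0 without saline replicate 3. The leaders of chromosomes 1, 16 and 2 kept their sign (-0.39 to -0.020, 0.17 to 0.39 and -0.40 to -0.17).

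The difference in leader share ranged from -0.27 to 3.25 points on chromosome 1 (-0.0065 without saline replicate 1, -0.27 without saline replicate 2), from -2.04 to 0.35 on chromosome 10 (0.30 without CFA replicate 3, 0.35 without saline replicate 2) and from -0.29 to 1.83 on chromosome 16 (-0.29 without saline replicate 2). It stayed above 0 on chromosomes 7 and 2 (0.13 to 0.32 and 0.80 to 2.96 points). Overlapping circles whose log2 fold change changed sign with a library left out were novel_circ_0019220 (-0.28 to 0.080), novel_circ_0019222 (-1.54 to 0.052) and novel_circ_0019204 (-0.31 to 0.10) on chromosome 1, novel_circ_0000374 (-0.34 to 0.57), novel_circ_0000360 (-0.22 to 0.16) and novel_circ_0000369 (-0.54 to 0.55) on chromosome 10, and novel_circ_0011231 (-0.64 to 0.28) and novel_circ_0011238 (-0.047 to 0.20) on chromosome 16. Depth limits the rare circles: 14 of the 65 had under 10 reads in all.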
